A study of Mus musculus with 6 samples.

Results

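Hoxc6, E2f6, Klf5 and Foxo3 encode 4 sequence-specific transcription factors that carry 4 different DNA-binding domains. They were followed through the probe sets to which the authors' deposited comparison table gives exactly one of these symbols. These are 4 of the 1512 genes named there, and 6 of the 45101 probe sets on the array. Hoxc6 had 3 of them, and E2f6, Klf5 and Foxo3 had 1 each. The table is filled only for probe sets with an unadjusted p under 0.05 between the genotypes, so the contrast described here is the one that selected the members. Their differences are therefore given as a description, without a test.

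RNA came from whole bone marrow of leukemic adult mice of equal age, after lysis of red cells, with 1 Affymetrix Mouse Genome 430 2.0 array per sample. All 6 arrays were of mice of the Vav-1 Nup98/HoxD13 tg strain, in which the Vav-1 promoter drives a fusion of the nucleoporin Nup98 and the homeobox factor HoxD13 in blood cells. The 3 samples labelled Gfi1 KI are the comparison group. As background that the labels do not give, they carry the human GFI1 coding sequence at the mouse locus, and the 3 samples labelled Gfi1 KD carry a version of this allele with reduced expression. No array was of a mouse without the transgene, so every value is relative to marrow of other leukemic mice. Gfi1 itself was not analysed here, because no row of the table names it, and the genotype could not be checked by its level. The labels give 1 animal number per array.

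Gfi1 is a zinc finger repressor that favours granulocytes over monocytes when myeloid progenitors mature. HOX factors pattern the embryonic body axis and keep blood progenitors immature, and Nup98 fusions with HOX partners act through that programme. E2F6 is an E2F family member without the pocket protein binding domain and represses genes with polycomb partners. KLF5 is a zinc finger factor of the Krüppel family, best known from epithelia and smooth muscle, with a reported role in granulocyte differentiation. FOXO3 is a forkhead factor that AKT phosphorylation keeps out of the nucleus, and that supports quiescence of blood stem cells.

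The promoters of E2f6 and Foxo3 are shown because the groups differ in a repressor that binds DNA through an AATC core and because KLF factors, such as KLF5, bind GC-rich boxes. Both come from RefSeq (GRCm38.p6) and span the annotated start of 1 transcript. Hoxc6 and Klf5 had no entry in that table. E2f6, chr12:16810715-16811014 on the plus strand, has the core AATC (or GATT on the other strand) in capitals. Foxo3, chr10:42276646-42276945 on the minus strand, has the GC box GGGCGGG (or CCCGCCC) in capitals.
E2f6: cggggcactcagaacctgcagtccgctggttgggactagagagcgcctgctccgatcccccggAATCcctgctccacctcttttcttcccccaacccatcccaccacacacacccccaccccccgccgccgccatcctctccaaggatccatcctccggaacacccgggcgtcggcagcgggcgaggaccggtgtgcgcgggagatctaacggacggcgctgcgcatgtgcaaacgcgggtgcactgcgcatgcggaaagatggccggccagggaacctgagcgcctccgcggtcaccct
Foxo3: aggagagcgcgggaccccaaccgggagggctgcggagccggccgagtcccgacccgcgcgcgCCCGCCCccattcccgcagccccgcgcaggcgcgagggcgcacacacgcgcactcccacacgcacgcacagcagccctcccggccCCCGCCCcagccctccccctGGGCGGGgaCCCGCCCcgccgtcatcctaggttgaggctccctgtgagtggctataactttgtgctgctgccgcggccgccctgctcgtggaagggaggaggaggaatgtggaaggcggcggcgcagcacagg
The E2f6 window held the Gfi1 core 1 time and the Foxo3 window 0 times, and 73.1% of the 32851 promoter windows of this length held it on either strand. GC boxes stood 4 times in the Foxo3 window and 0 times in that of E2f6, against 25.6% of all windows with at least 1. An E2F motif, GCGGGAA or TTCCCGC, was found 1 time in the Foxo3 window and is present in 4.60% of all windows. Neither window held the FOXO motif GTAAACA or TGTTTAC, which 3.65% of all windows hold. GC content was 68% for E2f6 and 75% for Foxo3, against a median of 52.7% over all windows. Motif matches describe the letters of these windows and do not show binding.

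Klf5 had lower signals in Gfi1-KD, Hoxc6 and E2f6 higher ones, and Foxo3 slightly lower ones whose groups overlapped in 1 of the 2 summarizations. Fold differences of geometric mean MAS5 signal were 5.30 for Klf5, from 1.65 to 1.80 for the 3 Hoxc6 probe sets, 1.28 for E2f6 and 1.31 for Foxo3. MAS5 and RMA are 2 ways to summarize the probes of a probe set, and RMA signals are on a log2 scale. All 6 probe sets had the same direction in both. limma's test over all 22519 probe sets above the level filter, with Benjamini-Hochberg adjustment, called 0 probe sets (0%), so none of the 6 members passed it. At an unadjusted p under 0.05 it had 1217 of these 22519 probe sets. With no difference between the groups, a share of about 0.05 would pass this threshold, so nothing is read from that count. In the authors' deposited table the members had unadjusted p-values of 0.00628 to 0.0338 and a step-up adjusted p of 0.911, and the largest p listed there was 0.0499952, just inside its threshold. Rows at a higher p are blank there, and any further probe sets of these genes among them were not analysed here. That table lists 4.41% of all probe sets, at the same threshold of 0.05, and nothing is read from that share either. Precision is limited by the small number of arrays.

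Klf5 lies on chromosome 14 (build 38, 99298691 to 99313412), and its probe set 1451021_a_at matched 9 transcripts. Its MAS5 signals were 928, 2262 and 2426 on Gfi1-KI replicates 1 to 3 and 372, 489 and 188 on Gfi1-KD replicates 1 to 3. Every Gfi1-KD array lay below every Gfi1-KI array, with Gfi1-KI replicate 1 the lowest of its group and Gfi1-KD replicate 3 the lowest of all. Mean log2 signals were 8.34 ± 0.71 (SD, n = 3) for Gfi1-KD and 10.75 ± 0.77 (SD, n = 3) for Gfi1-KI, a difference of -2.41 ± 0.50 (SE of limma). The SD of each group was thus less than a log2 unit and the difference over 2. Single arrays ran from 9.86 to 11.24 in Gfi1-KI and from 7.56 to 8.93 in Gfi1-KD.

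Log2 RMA signals of Klf5 were 8.86, 10.26 and 10.10 in Gfi1-KI and 7.32, 8.03 and 6.11 in Gfi1-KD, with a difference of -2.59. RMA thus gave a 6.01-fold lower geometric mean, against 5.30-fold in MAS5. Klf5 stood at the 75.1, 85.4 and 86.2 percentile of all probe sets on the Gfi1-KI arrays and at the 63.6, 68.3 and 54.2 percentile on the Gfi1-KD arrays. It had the lowest place on Gfi1-KD replicate 3, near the middle of that array. Klf5 had a log2 MAS5 signal of at least 7.56 on each array, above the level filter on mean signal of 6.95.

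A second probe set of the region, 1434025_at, was found after the values were seen and is no member, since the deposited table gives it no symbol. It aligns to chr14:99313428-99315035, which starts 16 bases past the RefSeq end of Klf5 on the same strand, and the array's own target text names it Klf5. Its MAS5 signals were 1087, 3549 and 3149 in Gfi1-KI and 313, 493 and 98.5 in Gfi1-KD. The arrays fell in nearly the same order as for the Klf5 probe set, with Gfi1-KI replicates 2 and 3 at the top in exchanged places and Gfi1-KD replicate 3 at the bottom. Its log2 difference was -3.21 ± 0.69 (SE of limma) in MAS5 and -2.88 in RMA, larger than that of the named probe set in both. Its probes are assigned to expressed sequence tags alone, so whether they read an extended Klf5 transcript was not tested.

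**Figure D1:**
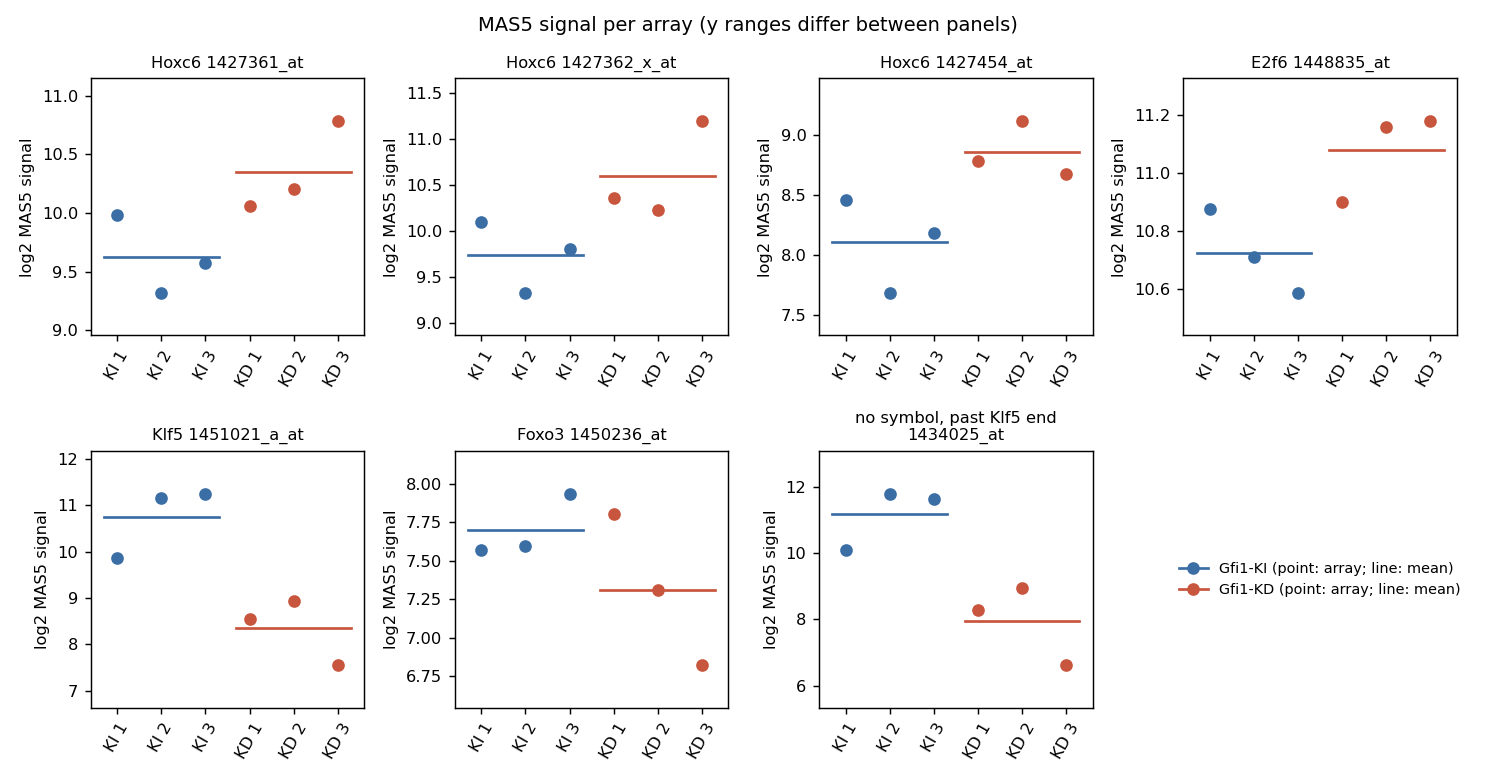
Log2 MAS5 signal (y axis) of the 6 member probe sets and of the unnamed probe set past the Klf5 end on each array (x axis). Points are arrays and lines are group means of 3 arrays. In Foxo3, the point of Gfi1-KD replicate 1 lies above those of Gfi1-KI replicates 1 and 2, while the groups do not overlap in the other panels.

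Hoxc6 lies in the HoxC cluster on chromosome 15 (102998226 to 103011882). Probe sets 1427361_at and 1427362_x_at were designed on the same sequence and both align to chr15:103010732-103011884, so they do not give independent readings. The third, 1427454_at, aligns to chr15:103009478-103011882. The deposited annotation matches all 11 of its probes to 2 older Hox 3.3 mRNA records and at most 3 of them to other transcripts, the RefSeq mRNA among these.

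For 1427362_x_at the MAS5 signals were 1094, 645 and 895 in Gfi1-KI and 1312, 1203 and 2336 in Gfi1-KD. Those of 1427361_at were 1009, 640 and 761 in Gfi1-KI and 1069, 1181 and 1760 in Gfi1-KD. On both, Gfi1-KI replicate 2 was the lowest array and Gfi1-KD replicate 3 the highest, and the groups did not overlap, with a gap of 1009 to 1069 on 1427361_at. On 1427454_at the signals were 351, 206 and 291 in Gfi1-KI and 439, 553 and 408 in Gfi1-KD. Here Gfi1-KD replicate 3 was the lowest of its group, unlike on the other 2 probe sets, and the groups again did not overlap.

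The MAS5 log2 differences of Hoxc6 were alike between probe sets, at 0.73 ± 0.28 for 1427361_at, 0.85 ± 0.33 for 1427362_x_at and 0.75 ± 0.29 for 1427454_at (SE of limma, n = 3 each). In RMA they were 0.87, 1.06 and 0.27. RMA thus gave a 2.09-fold difference for 1427362_x_at and a 1.21-fold one for 1427454_at, where MAS5 gave 1.80 and 1.68. Log2 RMA signals of 1427454_at were 7.34, 7.40 and 7.31 in Gfi1-KI and 7.61, 7.71 and 7.55 in Gfi1-KD. Their SD was 0.05 in Gfi1-KI and 0.08 in Gfi1-KD, against 0.39 and 0.23 in the MAS5 signals of that probe set. The smaller RMA difference therefore came with a smaller spread. Log2 RMA signals of 1427362_x_at were 8.93, 8.20 and 8.40 in Gfi1-KI and 9.36, 9.30 and 10.05 in Gfi1-KD, with the same lowest and highest arrays as in MAS5. Those of 1427361_at were 8.94, 8.36 and 8.55 in Gfi1-KI and 9.32, 9.28 and 9.88 in Gfi1-KD. The gap between the groups was thus wider in RMA than in MAS5 for this pair.

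E2f6 lies on chromosome 12 (16810909 to 16826752) and was the brightest member, at the 84.0 percentile of mean level over all probe sets. The deposited annotation matches 7 of the 11 probes of its probe set, 1448835_at, to 1 further transcript as cross-hybridizing, the most of any member. Probe set 1448835_at had MAS5 signals of 1877, 1677 and 1539 in Gfi1-KI and 1910, 2286 and 2318 in Gfi1-KD. The groups met without overlap, since the highest Gfi1-KI array (1877) and the lowest Gfi1-KD array (1910) were close. Mean log2 signals were 11.08 ± 0.16 (SD, n = 3) for Gfi1-KD and 10.72 ± 0.14 (SD, n = 3) for Gfi1-KI, a difference of 0.35 ± 0.19 (SE of limma). In RMA the signals were 10.04, 9.98 and 9.73 in Gfi1-KI and 10.16, 10.25 and 10.29 in Gfi1-KD, and the difference was 0.32. E2f6 thus had the narrowest MAS5 spread of the 6 probe sets and also the smallest MAS5 difference.

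Foxo3 lies on the minus strand of chromosome 10 (42181845 to 42276695) and was the dimmest member, at the 56.0 percentile of mean level. MAS5 signals of its probe set 1450236_at were 190, 194 and 245 in Gfi1-KI and 223, 159 and 113 in Gfi1-KD. The groups overlapped, since Gfi1-KD replicate 1 was above Gfi1-KI replicates 1 and 2. The log2 difference was -0.39 ± 0.34 (SE of limma), with an SD of 0.49 among the Gfi1-KD and of 0.20 among the Gfi1-KI arrays, so it was within the spread of the Gfi1-KD arrays. Log2 RMA signals were 6.47, 6.47 and 6.56 in Gfi1-KI and 6.33, 6.20 and 6.22 in Gfi1-KD. There the groups did not overlap, and the difference was -0.25 with SDs of 0.05 and 0.07. Gfi1-KD replicate 3 was the lowest array in MAS5 and Gfi1-KD replicate 2 in RMA.

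**Figure D2:**
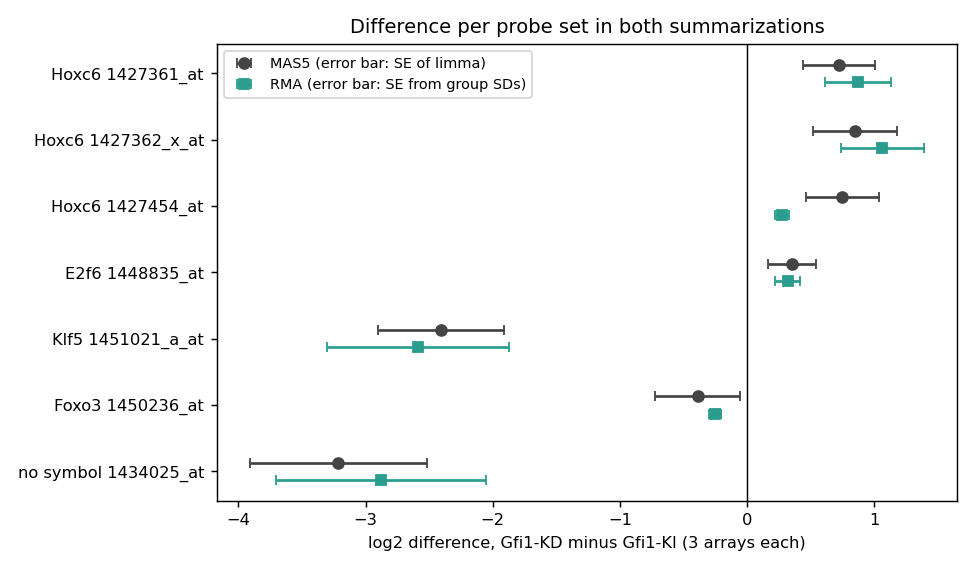
Log2 difference, Gfi1-KD minus Gfi1-KI (x axis), of each member probe set and of the unnamed probe set past the Klf5 end (y axis), from MAS5 signals (circles, SE of limma) and RMA signals (squares, SE from the group SDs). Hoxc6 1427454_at has 0.75 in MAS5 and 0.27 in RMA, and the Klf5 probe set has -2.41 and -2.59.

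In MAS5 signals the groups did not overlap for 5 of the 6 member probe sets, and in RMA signals for all 6. Groups did not overlap for 11.3% of all probe sets tested in MAS5, and for 99.9% of the probe sets listed in the authors' deposited table in RMA. Since that table was filled by p on these arrays, nothing is read from the members' counts. Of all probe sets that are both listed and above the level filter, 66.9% had groups without overlap in MAS5, and 97.4% had the same direction there as in RMA.

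Gfi1-KI replicate 2 stood apart from the other arrays, with a median Pearson r of 0.905 to them over probe sets, against 0.919 to 0.932 for each of the others. Without it, the MAS5 log2 differences were -2.21 for Klf5, 0.57, 0.64 and 0.54 for Hoxc6 (1427361_at, 1427362_x_at and 1427454_at), 0.35 for E2f6 and -0.44 for Foxo3. Gfi1-KD replicate 3 moved some values further. Without that array the difference was 0.55 instead of 0.85 for Hoxc6 1427362_x_at and -0.15 instead of -0.39 for Foxo3. It was -2.01 for Klf5 and 0.30 for E2f6. Leaving out Gfi1-KD replicate 1 gave -0.64 for Foxo3. Other arrays also moved values away from 0. Without Gfi1-KI replicate 1, the difference was -2.85 for Klf5 and 1.02 for Hoxc6 1427362_x_at. Without Gfi1-KD replicate 2, it was -2.70 for Klf5 and 1.03 for Hoxc6 1427362_x_at. No member changed direction in either summarization when any 1 array was left out. Where groups do not overlap, leaving out an array cannot change the direction, so only Foxo3 in MAS5 could have changed.

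**Figure D3:**
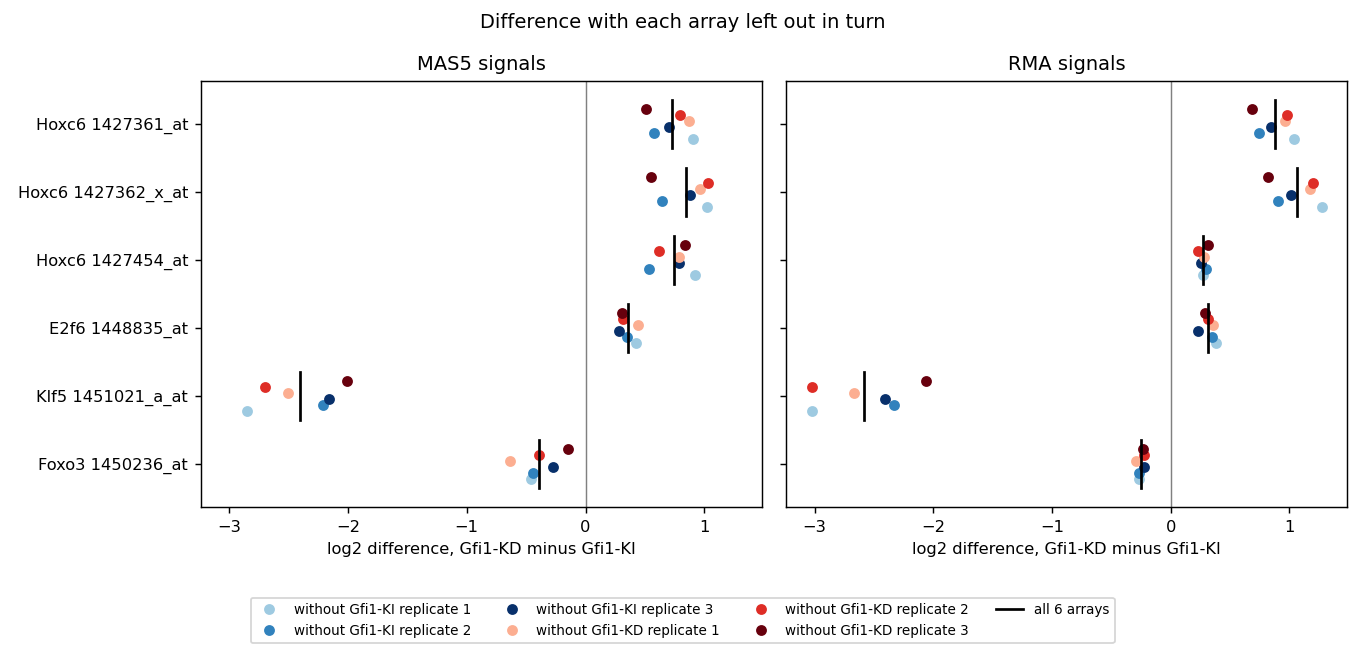
Log2 difference, Gfi1-KD minus Gfi1-KI (x axis), of each member probe set (y axis) with all 6 arrays (black bar) and with 1 array left out (points, coloured by that array), for MAS5 signals on the left and RMA signals on the right. Every point lies on the same side of 0 as its black bar, which is given in advance wherever the groups do not overlap. The MAS5 difference of Foxo3, whose groups overlap, comes closest to 0, at -0.15 without Gfi1-KD replicate 3.

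The whole marrow was measured, in which fewer cells of a type and less RNA per cell cannot be told apart. Late neutrophil markers were followed through 2 of the 13 genes of their list, Ltf and Lrg1, which the deposited table names. Their summed MAS5 signal was 18375 to 38877 in Gfi1-KI and 309 to 4269 in Gfi1-KD, lowest on Gfi1-KD replicate 3, as for Klf5. The 2 genes did not order the arrays alike. Ltf, an iron-binding protein of neutrophil granules, had MAS5 signals of 13788, 16158 and 26674 in Gfi1-KI, the same order as Klf5 there, and 2797, 2568 and 28.9 in Gfi1-KD. Lrg1 had 6455, 2217 and 12204 in Gfi1-KI, where replicate 2 was lowest, and 742, 1701 and 281 in Gfi1-KD, the same order as Klf5 there. Monocyte and macrophage markers were followed through 5 of 11 genes (Csf1r, Cx3cr1, Ccr2, Adgre1 and Ctss), with a summed signal of 26676 to 41956 in Gfi1-KI and 55436 to 80403 in Gfi1-KD. That sum, most of it from Csf1r and Ctss, was lowest on Gfi1-KI replicate 2 and highest on Gfi1-KD replicate 3, as were Hoxc6 1427361_at and 1427362_x_at. The match did not hold for every gene or probe set, since Cx3cr1 was lowest on Gfi1-KI replicate 3, Ccr2 was highest on Gfi1-KD replicate 2, and Hoxc6 1427454_at was highest on Gfi1-KD replicate 2 and lowest of that group on replicate 3. Csf1r, the growth factor receptor of monocytes, was bright on every array, at 10917 to 29729. The genes in both sums were picked by the genotype contrast itself, and the unnamed genes of the 2 lists were not analysed here. A gap between the groups in these sums was therefore largely given by the choice of genes. Neutrophil or monocyte content is not read from it. The part of cell composition in the values of Klf5 and Hoxc6 was not tested. The other marker lists had few named genes, with Epb41 of 9 erythroid genes lower and Mgst1 of 5 primary granule genes, Pax5 and Fcrla of 8 B cell genes and Cd28 of 6 T and NK cell genes higher in mean RMA signal in Gfi1-KD. Mgst1, Pax5 and Fcrla lay below the level filter, and the MAS5 groups of Pax5 overlapped. No gene of the 5 megakaryocyte and 6 stem and progenitor markers was named.

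**Figure D4:**
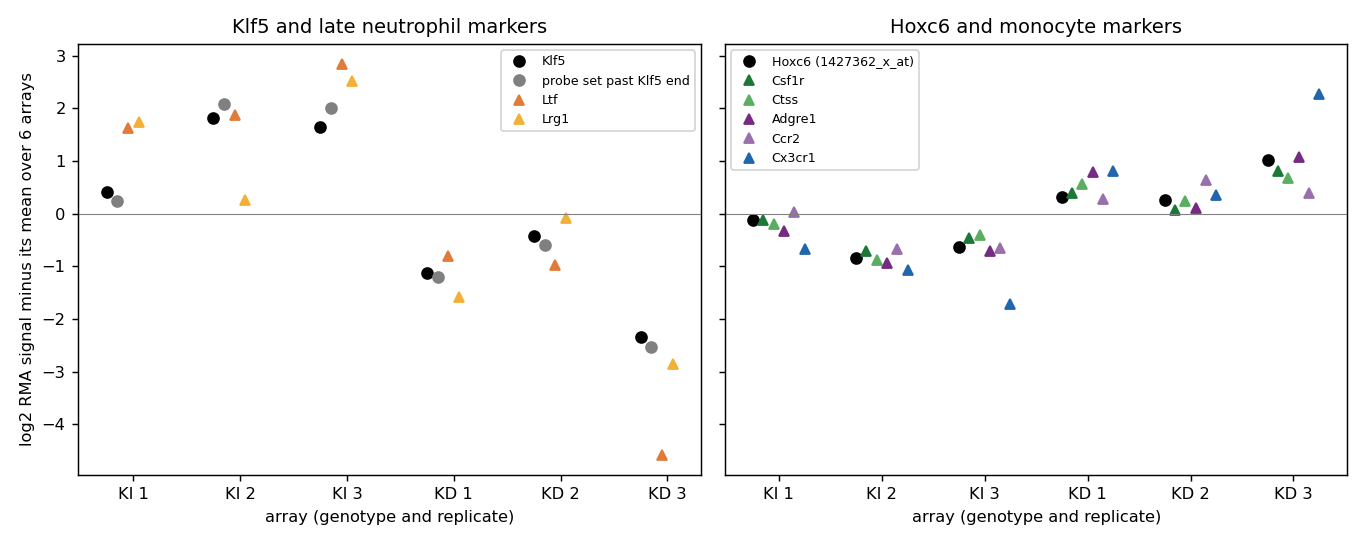
Log2 RMA signal minus its mean over the 6 arrays (y axis) on each array (x axis), for Klf5, the unnamed probe set past its end and 2 late neutrophil markers on the left, and for Hoxc6 and 5 monocyte markers on the right. Circles are Klf5, its neighbouring probe set and Hoxc6, and triangles are markers. Klf5 and Ltf are lowest on Gfi1-KD replicate 3, while Hoxc6 is highest there and lowest on Gfi1-KI replicate 2.

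Each member's pattern over the 6 arrays was set against the other 791 genes that the deposited table names above the level filter, by Pearson's r of log2 MAS5 signals with the brightest probe set of each. The genotype difference enters each of these r, because all candidates were selected on it. Klf5 was most like Lias (r = 0.993), a lipoic acid synthase, Acadvl (0.987), an acyl-CoA dehydrogenase, and Hccs (0.987), which attaches heme to cytochrome c. These 3 genes encode mitochondrial enzymes and differed far less than Klf5, with log2 differences of -0.47, -0.37 and -0.42. Hoxc6 was most like Pogk (0.998), Cept1 (0.979) and Pou2f2 (0.978), which encodes an octamer-binding factor of B cells and had a log2 difference of 1.24. E2f6 was most like Phtf1 (0.989), Pofut2 (0.984) and Siae (0.976), a sialic acid esterase. For Foxo3 the nearest genes were Ppig (0.962), Wipi1 (0.930), an autophagy protein, and Imp4 (0.897). An r of 0.95 or more was reached by 24 of the 791 genes for Klf5, 16 for Hoxc6, 12 for E2f6 and 1 for Foxo3.

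Related genes were counted on lists drawn from general knowledge. Of 48 HOX genes and cofactors the deposited table names 1, Hoxc6, and of 26 KLF and SP genes it names 1, Klf5. The other 47 and 25 genes were not analysed here, and whether Hoxc6 or Klf5 differed from its relatives was not tested. Of 27 E2F family members and E2F6 partners, 2 were named, E2f6 with a higher and Tfdp1 with a lower mean in Gfi1-KD. Tfdp1 encodes the dimerization partner DP1 of E2F factors. Its log2 RMA signals were 12.75, 12.62 and 12.77 in Gfi1-KI and 12.47, 12.56 and 12.26 in Gfi1-KD, a difference of -0.28. Tfdp1 thus had a difference close in size and opposite in sign to that of E2f6, at a far brighter signal, and its groups did not overlap in MAS5 either.

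The list of FOXO factors, their regulators and reported targets had 7 of 46 genes named (15.2%), the member Foxo3 among them. The deposited table lists 4.41% of all probe sets. That share is not per gene, so no enrichment is read from the count. In Gfi1-KD, 2 of the 7 genes had higher RMA means and 5 lower ones. The median log2 RMA difference of the 7 genes, each at its brightest listed probe set, was -0.22, which is the value of Akt2. Over all probe sets of the authors' deposited table the median was 0.14. No shift of the list is read from so few genes. Among the factors, Foxo1, the close relative of Foxo3 with roles in B cells, had log2 RMA signals of 8.48, 8.38 and 8.06 in Gfi1-KI and 8.97, 8.65 and 8.71 in Gfi1-KD. Foxo1 was thus higher in Gfi1-KD (difference 0.47) where Foxo3 was lower (-0.25), but the MAS5 signals of both genes overlapped between the groups. Of the regulators, Akt2, a kinase of FOXO factors, had a difference of -0.22 in RMA and 0.09 in MAS5, so its direction depended on the summarization. Ywhaz, a 14-3-3 protein that binds phosphorylated FOXO factors, had RMA differences of -0.31 and -0.33 in its 2 listed probe sets, and its groups did not overlap in MAS5. Rictor, a subunit of the kinase complex that activates AKT, had -0.14, with a mean MAS5 signal below the level filter.

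Bcl2l11, which encodes the pro-apoptotic protein BIM and is a reported FOXO target, had log2 RMA signals of 9.27, 8.78 and 8.99 in Gfi1-KI and 9.64, 9.48 and 9.45 in Gfi1-KD. It was higher on every Gfi1-KD array in both listed probe sets, with RMA differences of 0.51 and 0.53. Irs2, an insulin receptor adaptor and reported FOXO target, had log2 RMA signals of 8.75, 9.14 and 8.40 in Gfi1-KI and 8.13, 8.11 and 7.43 in Gfi1-KD. Its RMA difference was -0.87, and in MAS5, where Gfi1-KD replicate 3 read 39.8, it was -1.64 with overlapping groups. Bcl2l11 and Irs2 thus lay in opposite directions. Each of these genes entered the table by its p on the same arrays, so the counts do not describe the lists as a whole.

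**Figure D5:**
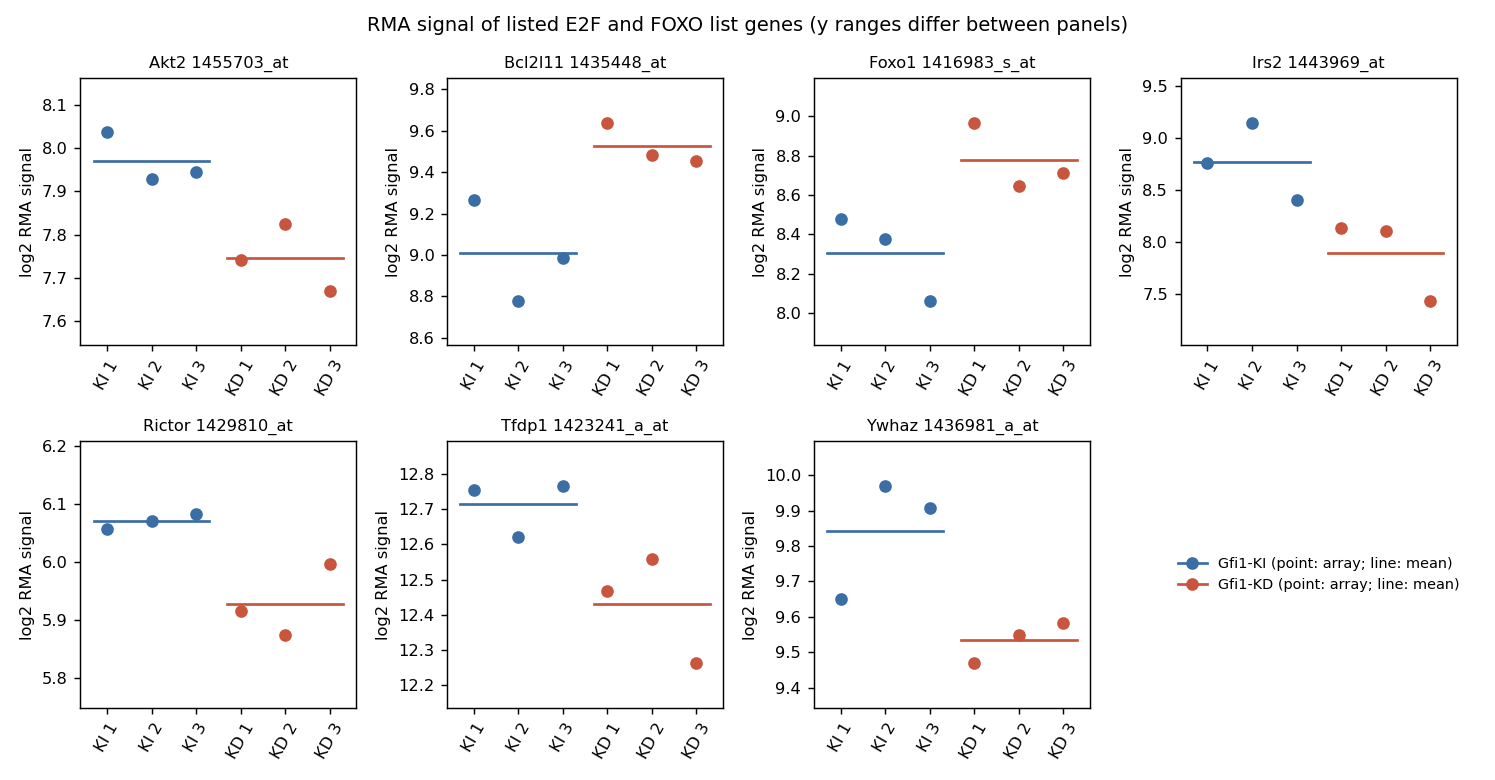
Log2 RMA signal (y axis) of the genes of the E2F and FOXO lists that the deposited table names beside the members, on each array (x axis). Points are arrays and lines are means of 3 arrays, in the brighter probe set where 2 are listed. Bcl2l11 and Foxo1 are higher and the other 5 genes lower in Gfi1-KD.

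The deposited annotation gives all 4 members the terms DNA-templated transcription, sequence-specific DNA-binding transcription factor activity and nucleus. Among the 1512 genes named in the table, 9.52%, 4.83% and 30.4% carry them, and the members were chosen as regulators.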

How the data were processed

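The value table holds 1 MAS5 intensity per probe set and array on a linear scale, as deposited, summarized with MAS5 per the submitters' processing notes. The comparison table holds log2 RMA signals, p-values of an analysis of variance, step-up p-values, the ratio between kd and wt, and a fold score with a sign, per the file headers. The sources used here name no software for it. It was read with wt as Gfi1-KI, and the deposited ratio was recomputed from the RMA signals within 0.0045%. Of its 45101 rows, 1989 are filled.

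MAS5 signals under 1 were set to 1 and log2 was taken. Controls were left out, and probe sets whose mean log2 signal was at least 6.95, the median, were tested with limma (version 3.58.1, R 4.3.3) with a trend, two-sided, with Benjamini-Hochberg adjustment at 0.05. Simulated data with known changes were used to test the script. With 3 arrays against 3, a two-sided exact permutation test cannot go below p = 0.1. Symbols were updated through Entrez identifiers. Groups come from the genotype label, and replicates were numbered in accession order. SD and SE are on the log2 scale.

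Members, lists and tests were chosen with earlier results of these data known. The text names the members, the 3 genes most like each and every list gene that the table names. The labels give separate animal numbers, but no batch. Alternatives were other level filters, normalizations, added constants and tests, and leaving out each array.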

Additional observations from a re-analysis of the deposited data

How the results depend on the processing

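Across 102 alternative values of the 6 member probe sets, 101 moved by less than the SD between replicates, 1 moved by more and 0 reversed. The exception was Hoxc6 1427454_at, with a log2 difference of 0.75 in MAS5 and 0.27 in RMA, and the cause was not tested. Most of the 102 values came from leaving out 1 array. In groups of this size, that step cannot shift a difference by as much as the SD, so those values could not fail. Only a change of normalization, added constant or summarization could have moved a value by more. limma called 0 probe sets under both other level filters, both other normalizations, both added constants and without a trend, and 0 with each array left out in turn, with 539 to 2126 at an unadjusted p under 0.05 there. The analysis of variance per probe set called 1, which is no member and has no shared variance between probe sets. No paired analysis was possible because the labels carry no replicate numbers. Foxo3 had the lowest mean log2 MAS5 signal of the members, 7.51, and its difference of -0.39 ranged from -0.64 to -0.15 with 1 array left out. Signal over background was not analysed here for single probe sets.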
